A study of Homo sapiens with 6 samples.

Results

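The mRNAs of SR proteins, hnRNP proteins, RBM proteins and the SF3a and SF3b subunits were examined in A549 cells with and without the MIR21 gene. Members were the protein-coding genes of the deposited table whose symbols begin with SRSF or RBM followed by a number, with HNRNP, or with SF3A or SF3B and a number, together with TRA2A, TRA2B, PTBP1, PTBP2 and PTBP3. By this rule 89 of the 58174 listed genes were members, comprising 14 SR genes (TRA2A and TRA2B included), 29 hnRNP genes (the PTBP genes included), 37 RBM genes and 9 SF3 genes. Testing required an average of 0.5 FPKM or more over the 6 libraries, which 79 members passed. FPKM denotes fragments scaled to gene length and to library size.

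Most of these proteins bind pre-mRNA through RNA recognition motifs or KH domains and influence which splice sites are used. SR proteins carry a domain rich in serine-arginine dipeptides and typically promote the inclusion of exons by binding exonic enhancers, whereas hnRNP proteins package nascent transcripts and often silence exons. SF3a and SF3b are parts of the U2 snRNP and hold the branch point of the intron. RBM is a naming convention rather than a family, and RBM proteins act in splicing, in RNA modification and in RNA decay. Many SR and hnRNP genes adjust their own mRNA level through unproductive splicing.

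A549 is an established human cell line from a lung adenocarcinoma. Ctrl denotes the parental cells, and MIR21-KO denotes cells in which MIR21 was deleted by CRISPR/Cas9 with a pair of guide RNAs and which were grown from single sorted cells. Ctrl cells thus still carry MIR21, and both groups were grown in DMEM with 10% FBS and collected 48 h after plating, with 3 libraries each. How many clones gave the MIR21-KO libraries is not given, so clonal differences and the deletion cannot be told apart. The study describes the 3 samples of a group as independent without saying what separated them, and all p-values measure the spread between these libraries.

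MIR21 itself was listed at 0 FPKM in all 6 libraries, and as polyA selection misses the mature miRNA this checks neither group. Recovered reads summed to between 10631667 and 14345209 per library, so that 1 read per kb of gene equalled 0.0731 to 0.0930 FPKM. Of the lung epithelial markers, 7 of 7 were detected, with summed levels of 1685 to 1808 FPKM in Ctrl and 1219 to 1747 FPKM in MIR21-KO, with overlap between groups. Keratins made up nearly all of this sum. EPCAM averaged 1.19 FPKM in Ctrl and 0.695 FPKM in MIR21-KO, and MUC1 averaged 1.34 FPKM and 2.17 FPKM. Of the 7 markers, 4 had fold changes below zero and 3 above. CDH1 (E-cadherin) alone was called, as lower (log2 change -1.48, FDR 0.000175), with KRT18 (log2 change -0.69, FDR 0.0153) and MUC1 (log2 change 0.66, FDR 0.021) next in FDR. What part this plays in the members' values was not tested. Among 11 markers of blood, endothelial and stromal cells, 4 were at 0 in every library and 10 were below 0.5 FPKM in every library. The exception was COL1A1, which averaged 3.41 FPKM in Ctrl and 3.91 FPKM in MIR21-KO. The summed level of these 11 was 3.38 to 3.66 FPKM in Ctrl and 3.55 to 4.76 FPKM in MIR21-KO. As in any bulk sample, fewer cells expressing a gene and less RNA of it per cell cannot be told apart.

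In MIR21-KO cells, the mRNAs of 13 members were lower than in parental cells at a false discovery rate (FDR) under 0.01, and none was higher. The 13 were SRSF1, SRSF7, TRA2B, HNRNPA2B1, HNRNPAB, HNRNPR, PTBP1, RBM12, RBM14, RBM24, RBM27, RBM28 and RBM38. FDRs were obtained with limma on log2(FPKM + 0.1) over all 16006 tested genes, and fold changes are given on that scale as MIR21-KO over Ctrl. This corresponds to 16.5% of the 79 tested members, against a background of 16.0% of all tested genes called in either direction, 8.38% called lower and 7.66% called higher. By an unadjusted p under 0.05, 40 members were lower and 6 higher, where 22.5% and 20.7% of all tested genes were. Limma with voom weights on the recovered reads called 19 members lower and 3 higher, where 10.7% and 10.8% of all tested genes were called (21.5% in all). At an FDR under 0.05, 31 members were lower and 5 higher, against 16.8% and 15.2% of all tested genes (32.0% in all).

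Small decreases were more common than large ones. The fitted fold change was below zero for 61 of 79 members (77.2%), compared with 51.5% of all tested genes and 53.5% of tested protein-coding genes. The median was -0.21 for members and -0.02 for all tested genes. RBM24 was the only tested member that changed by at least 2-fold. All 3 MIR21-KO libraries lay below all 3 Ctrl libraries for 43 members (54.4%), against 25.2% of all tested genes, and above them for 7 members, against 22.8%. Class medians were -0.20 for SR genes, -0.24 for hnRNP genes, -0.20 for RBM genes and -0.15 for SF3 genes. After removal of each library's trends on GC content and gene length they were -0.07, -0.10, -0.16 and -0.14 in the same order.

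The tested members had a median level of 22 FPKM, against 6.41 FPKM for tested protein-coding genes. Members were therefore also compared with other genes above a minimum level. Among 4220 protein-coding genes averaging 10 FPKM or more, a limit chosen after seeing the data, 16.1% were called lower and 8.82% higher, with a median of -0.10. The 53 members above that limit had 17.0% called lower, 0 called higher (4 by an unadjusted p under 0.05 and 1 by voom) and a median of -0.23. The share called lower was thus close to that of all protein-coding genes above the limit. The share called in either direction was smaller (17.0% against 24.9%), and the median lay further below zero. The limit is only a minimum, and levels above it were not matched. Of the 53 members, 64.2% had all MIR21-KO libraries below all Ctrl libraries, compared with 38.6% of the protein-coding genes above the limit. The called genes RBM24, RBM27, RBM28 and RBM38 lay below the limit and are not in these shares.

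**Figure D1:**
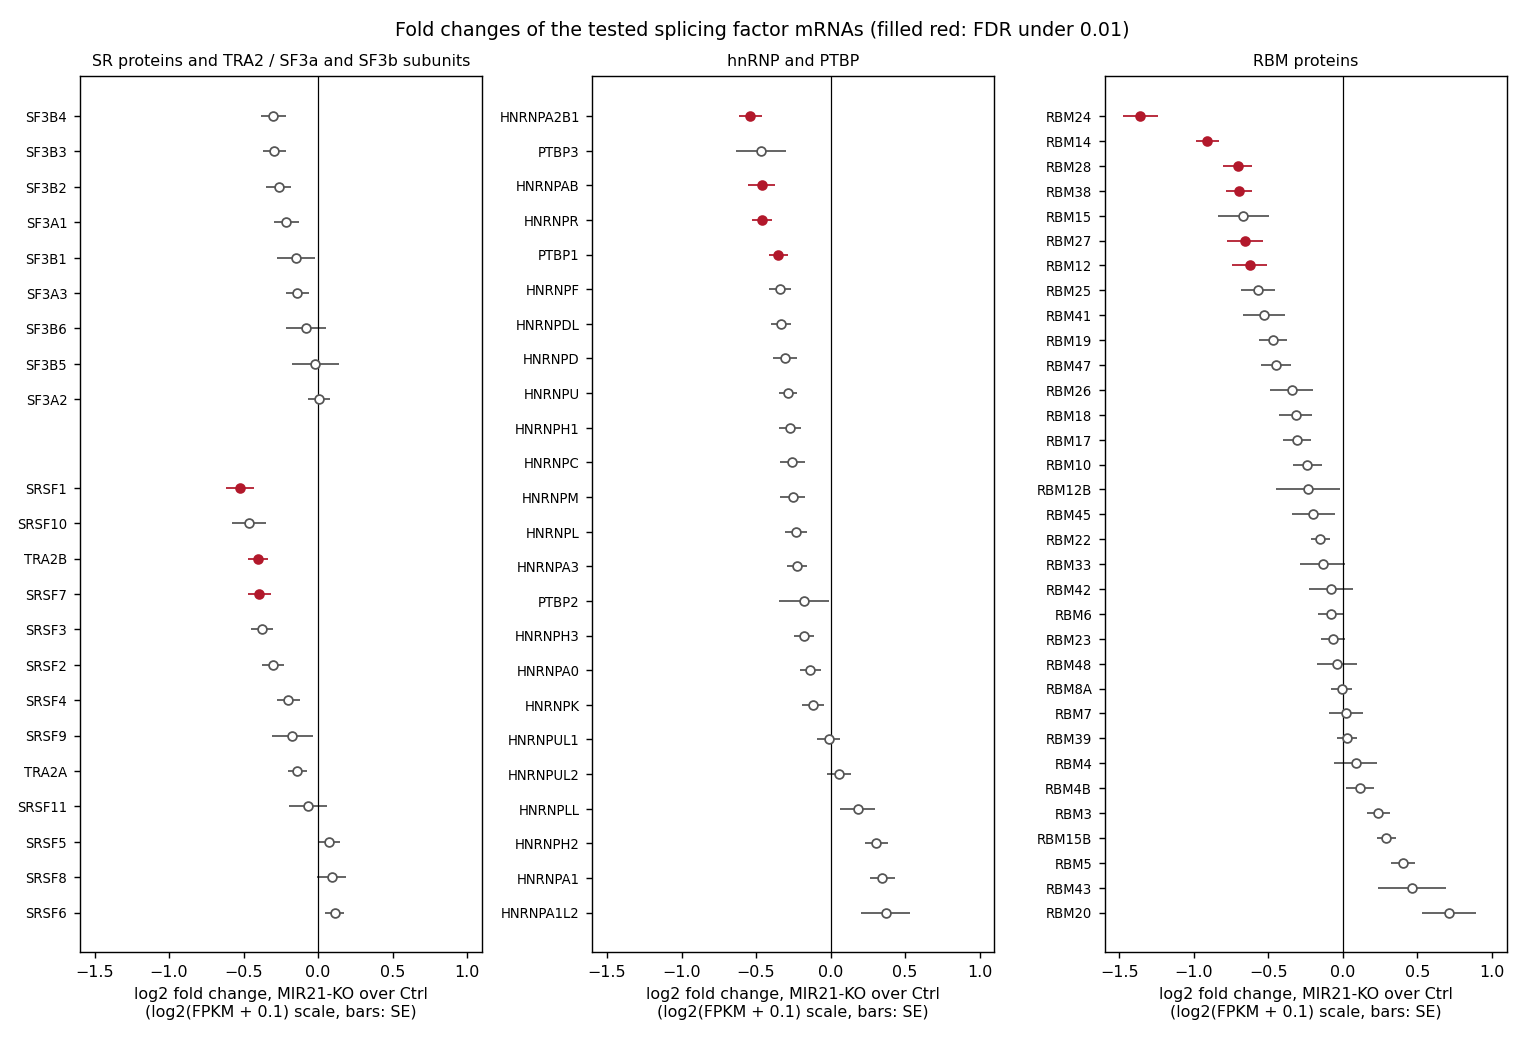
Fitted log2 fold changes (MIR21-KO over Ctrl, log2(FPKM + 0.1) scale) of the 79 tested members, with standard errors as bars and members with an FDR under 0.01 filled red. All 13 filled points lie left of zero, and 18 members lie right of it with open points.

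**Figure D2:**
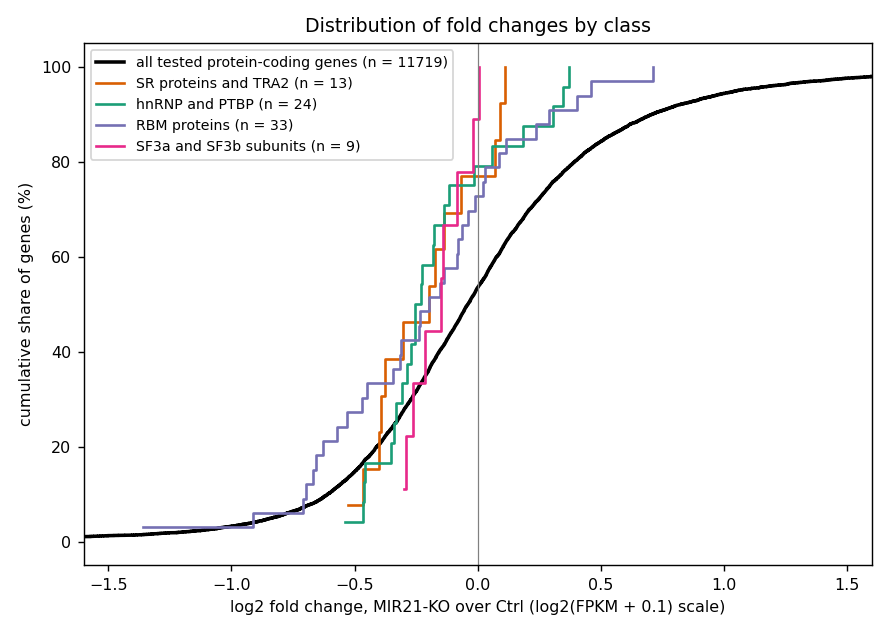
Cumulative share of genes (%) over the log2 fold change for the 4 classes and for all 11719 tested protein-coding genes (black). The class curves cross zero at 72.7% to 88.9%, above the 53.5% of the black curve, and the RBM curve spreads furthest to both sides.

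Since the deleted gene encodes miR-21-5p, the 3′ UTRs of the members were searched for its seed matches. The mature miRNA (RefSeq, GRCh38.p14, chr17:59841273-59841294, plus strand) is shown first, with its seed (bases 2 to 8) in capitals. Below it are sites in members, shown because they comprise every 8mer match among the members, the 7mer matches of the called genes RBM27 and RBM28, and that of SRSF3, an SR protein just above the threshold. Capitals in the sites mark the match, written as DNA, in the longest 3′ UTR annotated in GENCODE 29. An 8mer is ATAAGCT followed by A, a 7mer-m8 is ATAAGCT, and a 7mer-A1 is TAAGCTA.
miR-21-5p: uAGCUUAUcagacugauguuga
RBM15B 8mer: gcagacactgtgagtATAAGCTA
RBM45 8mer: ctcattaaaactacaATAAGCTA
SF3B3 8mer: cgtgagtatatgtgtATAAGCTA
RBM27 7mer-m8: aacactgaaggtaaaATAAGCT
RBM28 7mer-A1: tcacactgtgggtgccTAAGCTA
SRSF3 7mer-m8: tttgtttgagacttcATAAGCT

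An 8mer was held by 3 tested members (3.80%), compared with 2.98% of tested protein-coding genes with an annotated 3′ UTR. Of these only RBM15B lay above zero, at 12.2, 11.9 and 11.6 FPKM in Ctrl and 14.7, 14.6 and 14.4 FPKM in MIR21-KO. Its groups did not overlap, but the difference did not pass the threshold (log2 change 0.29, FDR 0.0154). RBM15B is a subunit of the m6A methyltransferase complex. RBM45 (3.09, 3.28 and 2.57 FPKM in Ctrl and 2.95, 2.36 and 2.45 FPKM in MIR21-KO) and SF3B3 (28.1, 25.2 and 26.8 FPKM in Ctrl and 20.8, 21.6 and 22.9 FPKM in MIR21-KO) had lower means in MIR21-KO, and neither passed (FDR 0.344 and 0.0267). The RBM45 groups overlapped and those of SF3B3 did not.

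In all, 16 tested members held an 8mer or 7mer for miR-21-5p, of which 15 had fold changes below zero and 1 above. Their median was -0.30, compared with -0.19 for the 46 members without any match of 6 bases or more and -0.04 for the 1765 protein-coding genes with an 8mer or 7mer. RBM27 and RBM28 were the 2 of these 16 that passed the threshold, and both fell. Of the 46 members without a match, 34 had fold changes below zero and 12 above, and 9 were called lower. Of all tested genes, 8.38% were called lower. Members had longer 3′ UTRs than other tested protein-coding genes (median of 2284 against 1621 bases). No test was made between these groups of members.

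Among the 7mer genes not described elsewhere, HNRNPK, a poly(C)-binding hnRNP, was at 199.8, 191.0 and 191.1 FPKM in Ctrl and 176.0, 179.6 and 181.3 FPKM in MIR21-KO. RBM22, a component of the catalytic spliceosome, was at 16.1, 16.6 and 16.0 FPKM in Ctrl and 14.8, 14.8 and 14.2 FPKM in MIR21-KO. RBM23 was at 6.94, 6.82 and 7.06 FPKM in Ctrl and 7.02, 6.51 and 6.37 FPKM in MIR21-KO. In HNRNPK and RBM22 the groups did not overlap and in RBM23 they did, and none of the 3 passed (FDR 0.271, 0.123 and 0.571). RBM17, a splicing factor that contacts SF3B1, was at 16.1, 17.8 and 17.6 FPKM in Ctrl and 14.9, 14.2 and 12.4 FPKM in MIR21-KO. RBM25, which stimulates the use of alternative 5′ splice sites, was at 16.1, 14.1 and 14.9 FPKM in Ctrl and 8.79, 10.2 and 11.4 FPKM in MIR21-KO. RBM33 was at 5.99, 4.67 and 5.31 FPKM in Ctrl and 4.04, 4.95 and 5.57 FPKM in MIR21-KO. RBM17 and RBM25 were lower in every MIR21-KO library than in any Ctrl library, but missed the threshold (FDR 0.0435 and 0.0102), and RBM33 overlapped. RBM41 was at 4.70, 4.51 and 4.73 FPKM in Ctrl and 2.97, 2.78 and 3.92 FPKM in MIR21-KO, also without overlap (log2 change -0.53, FDR 0.031).

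Of the 13 tested SR genes, 3 fell (SRSF1, SRSF7 and TRA2B) and none rose, with 7 lower and 0 higher by an unadjusted p under 0.05 and 4 lower and 0 higher by voom. The share called lower was 23.1%, against 8.38% of all tested genes (16.0% in either direction). Among protein-coding genes averaging 10 FPKM or more, a level that all tested SR genes but SRSF8 reached, 16.1% were called lower. The shares of all genes by unadjusted p and by voom given above hold for each class. Each of the 3 calls was lost under 9 to 11 of 20 alternatives. Among these 20, here and below, the FDR under 0.05 is a looser cut on the main fit and cannot lose a call. SRSF1 (ENSG00000136450, chr17:58003360-58007346, minus strand of hg38), the founding SR protein and a proto-oncogene product, was at 121.7, 121.9 and 121.0 FPKM in Ctrl and 77.9, 80.9 and 95.5 FPKM in MIR21-KO. The Ctrl libraries were nearly identical and all lay above the MIR21-KO libraries, of which replicate 3 was the highest. This gave a log2 fold change of -0.53 ± 0.10 (SE), FDR of 0.00746. In the annotation 56.6% of the SRSF1 exon length is shared on the same strand with AC015813.2, so these reads depend on how overlaps were counted. SRSF9, its closest relative, was at 68.7, 75.2 and 71.1 FPKM in Ctrl and 74.2, 66.3 and 52.1 FPKM in MIR21-KO, with overlapping groups (log2 change -0.17, FDR 0.369).

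TRA2B (ENSG00000136527, chr3:185915906-185938136, minus strand) binds GAA-rich enhancers and was at 17.1, 16.6 and 16.0 FPKM in Ctrl and 12.2, 12.6 and 12.8 FPKM in MIR21-KO, without overlap (log2 fold change of -0.40 ± 0.07 (SE), FDR of 0.00566). Its homologue TRA2A was at 29.8, 29.8 and 29 FPKM in Ctrl and 27.3, 26.9 and 26.2 FPKM in MIR21-KO, also without overlap, but did not pass (log2 change -0.14, FDR 0.137). SRSF7 (ENSG00000115875, chr2:38743599-38751494, minus strand), a zinc knuckle protein that also promotes mRNA export, was at 47.2, 53.2 and 51.5 FPKM in Ctrl and 40.0, 38.4 and 37.0 FPKM in MIR21-KO. All MIR21-KO libraries were lower (log2 fold change of -0.39 ± 0.08 (SE), FDR of 0.00962). SRSF3, the smallest SR protein and a paralogue of SRSF7, was at 58.6, 61.3 and 60.2 FPKM in Ctrl and 49.4, 45.6 and 43.8 FPKM in MIR21-KO, again without overlap but just outside the threshold (log2 change -0.38, FDR 0.0101).

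SRSF2 (SC35), the most abundant SR mRNA, was at 123.9, 131.6 and 130.0 FPKM in Ctrl and 106.9, 104.5 and 100.8 FPKM in MIR21-KO. The groups did not overlap, and the difference missed the threshold (log2 change -0.30, FDR 0.0199). SRSF8, a copy of SRSF2 without introns, was at 7.04, 7.71 and 8.64 FPKM in Ctrl and 8.51, 7.91 and 8.46 FPKM in MIR21-KO, with overlap (log2 change 0.09, FDR 0.512). SRSF10, a splicing repressor when dephosphorylated, averaged 15.0 ± 0.873 FPKM in Ctrl and 10.9 ± 1.51 FPKM in MIR21-KO without overlap (log2 change -0.46, FDR 0.0215).

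The closely related SRSF4, SRSF5 and SRSF6 did not pass in either direction. SRSF6 was at 48.0, 48.7 and 49.6 FPKM in Ctrl and 51.4, 52.8 and 53.9 FPKM in MIR21-KO, so that all MIR21-KO libraries were slightly above Ctrl (log2 change 0.11, FDR 0.227). SRSF5 was at 34.0, 36.7 and 38.3 FPKM in Ctrl and 39.2, 38.5 and 36.8 FPKM in MIR21-KO, with overlap (log2 change 0.07, FDR 0.499). SRSF4 was at 11, 11.3 and 11.1 FPKM in Ctrl and 9.90, 10.1 and 9.04 FPKM in MIR21-KO, with MIR21-KO below Ctrl (log2 change -0.20, FDR 0.088). SRSF11 averaged 15.5 ± 0.398 FPKM in Ctrl and 15.0 ± 2.61 FPKM in MIR21-KO, which overlapped (log2 change -0.07, FDR 0.729). Together the SR mRNAs summed to 613 ± 12.6 FPKM in Ctrl and 512 ± 6.401 FPKM in MIR21-KO cells (SD, n = 3), a difference of -16.5% without overlap.

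Of the 24 tested hnRNP genes, 4 fell (HNRNPA2B1, HNRNPAB, HNRNPR and PTBP1) and none rose, with 15 lower and 2 higher by an unadjusted p under 0.05 and 6 lower and 1 higher by voom. The share called lower was 16.7%, against 8.38% of all tested genes and 16.1% of protein-coding genes averaging 10 FPKM or more. Each of the 4 calls was lost under 7 or 8 of 20 alternatives. HNRNPA2B1 (ENSG00000122566, chr7:26173057-26201529, minus strand), which binds pre-mRNA and sorts miRNAs into exosomes, was at 224.2, 238.3 and 227.6 FPKM in Ctrl and 165.4, 157.3 and 152.6 FPKM in MIR21-KO. All MIR21-KO libraries were far below Ctrl (log2 fold change of -0.54 ± 0.08 (SE), FDR of 0.00326), and with the trends on GC content and length removed its log2 change was -0.40 (FDR 0.0435). HNRNPAB (ENSG00000197451, chr5:178204507-178211163, plus strand), a relative of HNRNPD, was at 191.2, 204.9 and 194.8 FPKM in Ctrl and 153.2, 145.0 and 131.3 FPKM in MIR21-KO, without overlap (log2 fold change of -0.46 ± 0.09 (SE), FDR of 0.00901). HNRNPR (ENSG00000125944, chr1:23303771-23344336, minus strand), a relative of SYNCRIP, was at 36.8, 38.3 and 36.9 FPKM in Ctrl and 26.2, 27.1 and 28.2 FPKM in MIR21-KO, also without overlap (log2 fold change of -0.46 ± 0.07 (SE), FDR of 0.00314).

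PTBP1 (ENSG00000011304, chr19:797075-812327, plus strand), the polypyrimidine tract binding protein or hnRNP I, represses neuronal exons and was at 72.1, 72.1 and 70.2 FPKM in Ctrl and 57.1, 55.3 and 55.6 FPKM in MIR21-KO. The spread within each group was small, and the groups lay well apart (log2 fold change of -0.35 ± 0.06 (SE), FDR of 0.00776). PTBP2, the neuronal form, was near the lower end of the tested range, at 1.49, 1.56 and 1.36 FPKM in Ctrl and 1.27, 1.12 and 1.5 FPKM in MIR21-KO, with overlap (log2 change -0.18, FDR 0.452). PTBP3, which is also expressed in blood cells, was at 61.6, 49.4 and 52.6 FPKM in Ctrl and 32.9, 37.1 and 49.9 FPKM in MIR21-KO. Ctrl replicate 2 (49.4 FPKM) and MIR21-KO replicate 3 (49.9 FPKM) overlapped, and the difference did not pass (log2 change -0.46, FDR 0.077).

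HNRNPA1 (ENSG00000135486), a splicing silencer and the most abundant member, had a higher mean in MIR21-KO. It was at 290.9, 288.3 and 290.4 FPKM in Ctrl and 387.2, 377.6 and 343.8 FPKM in MIR21-KO. All MIR21-KO libraries were above Ctrl, but replicate 3 was closer to Ctrl than the others, and the difference missed the threshold (log2 fold change of 0.35 ± 0.09 (SE), FDR of 0.0221). Over the alternatives the FDR ranged from 0.00356 to 0.104, and the call was made without MIR21-KO replicate 3 (0.00356), with voom (0.00454) and after removal of GC and length trends (0.00653). HNRNPA1 has 75 pseudogene rows in the table, which held 6.89% of the reads of HNRNPA1 and its pseudogenes. As a share of each library's reads, the log2 change was 0.31 for HNRNPA1 alone and 0.30 with the pseudogenes added. HNRNPA1L2, a retrogene copy whose reads may be split with HNRNPA1, averaged 8.12 ± 1.15 FPKM in Ctrl and 10.6 ± 2.04 FPKM in MIR21-KO (log2 change 0.37, FDR 0.132).

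HNRNPA3 was at 87.3, 84.4 and 84.0 FPKM in Ctrl and 74.4, 72.8 and 71.3 FPKM in MIR21-KO, without overlap (log2 change -0.23, FDR 0.0416). HNRNPA0 was at 35.3, 36.5 and 36.0 FPKM in Ctrl and 34.6, 32.7 and 30.9 FPKM in MIR21-KO, with all MIR21-KO libraries below Ctrl (log2 change -0.14, FDR 0.192). These A/B-type relatives of HNRNPA1 were thus lower on average in MIR21-KO, where HNRNPA1 was higher. Without HNRNPA1 the hnRNP mRNAs summed to 1740 FPKM in Ctrl and 1444 FPKM in MIR21-KO, a difference of -17.0%, and with it the difference was -10.6%. HNRNPA1 made up 14.3% ± 0.120 of the hnRNP sum in Ctrl, compared with 20.4% ± 0.787 in the knockout (SD, n = 3).

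The hnRNP H and F proteins bind runs of guanosines. HNRNPH2 (ENSG00000126945), which is X-linked, was at 38.1, 43.0 and 42.7 FPKM in Ctrl and 52.3, 49.4 and 51.1 FPKM in MIR21-KO. All MIR21-KO libraries were above Ctrl, though the difference did not pass (log2 change 0.31, FDR 0.0242), except after removal of GC and length trends (FDR 0.00216). HNRNPH1 was at 62.7, 64.1 and 66.4 FPKM in Ctrl and 50.3, 54.3 and 55.7 FPKM in MIR21-KO, with MIR21-KO below Ctrl (log2 change -0.27, FDR 0.0309). HNRNPF was at 120.1, 119.7 and 125.0 FPKM in Ctrl and 98.6, 97.0 and 92.8 FPKM in MIR21-KO, also below (log2 change -0.34, FDR 0.0126). HNRNPH3 was at 41.6, 43.7 and 44.4 FPKM in Ctrl and 36.6, 38.7 and 39.2 FPKM in MIR21-KO (log2 change -0.18, FDR 0.0923). The ranges of HNRNPH1 and HNRNPH2, well apart in Ctrl, overlapped in MIR21-KO.

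HNRNPD (AUF1), which controls the decay of AU-rich mRNAs, was at 52.7, 54.8 and 52.3 FPKM in Ctrl and 46.6, 42.5 and 40.2 FPKM in MIR21-KO. HNRNPDL was at 65.4, 67.1 and 66.6 FPKM in Ctrl and 53.5, 50.8 and 53.7 FPKM in MIR21-KO. Neither pair of groups overlapped, and both missed the threshold (FDR 0.0265 and 0.0101), HNRNPDL narrowly. HNRNPU (SAF-A), a nuclear scaffold protein, was at 40.2, 39.5 and 39.1 FPKM in Ctrl and 32.0, 32.8 and 32.6 FPKM in MIR21-KO, without overlap (log2 change -0.29, FDR 0.0135). HNRNPUL1 was at 126.9, 115.4 and 121.9 FPKM in Ctrl and 114.6, 124.1 and 122.0 FPKM in MIR21-KO, and HNRNPUL2 averaged 15.5 ± 1.03 FPKM in Ctrl and 16.1 ± 0.866 FPKM in MIR21-KO. Both overlapped between groups. HNRNPC, HNRNPL and HNRNPM had log2 fold changes of -0.23 to -0.26 (FDR 0.0497 to 0.0571), while HNRNPLL averaged 8.98 ± 0.966 FPKM in Ctrl and 10.2 ± 1.03 FPKM in MIR21-KO.

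Of the 33 tested RBM genes, 6 fell and none rose, with 14 lower and 4 higher by an unadjusted p under 0.05 and 9 lower and 2 higher by voom. The share called lower was 18.2%, against 8.38% of all tested genes (16.0% in either direction). RBM24 (ENSG00000112183, chr6:17281346-17293875, plus strand), a regulator of muscle splicing and of mRNA stability, changed most of all tested members. It was at 6.77, 5.94 and 6.45 FPKM in Ctrl and 2.20, 2.40 and 2.71 FPKM in MIR21-KO. All MIR21-KO libraries were below any of the Ctrl libraries by a wide margin (log2 fold change of -1.36 ± 0.12 (SE), FDR of 0.00043). RBM14 (ENSG00000239306, chr11:66616582-66627347, plus strand), a coactivator and paraspeckle protein, was at 31.4, 32.9 and 34.8 FPKM in Ctrl and 18.5, 17.4 and 16.7 FPKM in MIR21-KO. No MIR21-KO library came near Ctrl (log2 fold change of -0.91 ± 0.08 (SE), FDR of 0.000392). RBM24 and RBM14 were the only members that stayed called in each of the alternatives in which they were tested (19 and 20). The call was lost under 5 of 20 alternatives for RBM38, 6 of 19 for RBM28, 10 of 19 for RBM27 and 10 of 20 for RBM12.

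RBM28 (ENSG00000106344, chr7:128297685-128343908, minus strand), a nucleolar protein of ribosome biogenesis, was at 4.48, 4.38 and 4.24 FPKM in Ctrl and 2.54, 2.58 and 2.79 FPKM in MIR21-KO, without overlap (log2 fold change of -0.71 ± 0.10 (SE), FDR of 0.00271). RBM38 (ENSG00000132819, chr20:57391407-57409333, plus strand), a p53 target that binds AU-rich and U-rich mRNA elements, was at 12.6, 12.7 and 11.2 FPKM in Ctrl and 7.73, 7.75 and 6.95 FPKM in MIR21-KO, without overlap (log2 fold change of -0.70 ± 0.09 (SE), FDR of 0.00198). Its 3′ UTR holds an 8mer for let-7 (CTACCTCA), the only such match among the tested members. RBM27 (ENSG00000091009, chr5:146203600-146289132, plus strand), linked to nuclear RNA decay, was at 4.47, 4.99 and 4.38 FPKM in Ctrl and 2.86, 2.61 and 3.22 FPKM in MIR21-KO, again without overlap (log2 fold change of -0.66 ± 0.12 (SE), FDR of 0.0073). In the annotation 45.4% of the RBM27 exon length is shared with another gene on the same strand. RBM12 (ENSG00000244462, chr20:35648925-35664956, minus strand) was at 17.8, 17.0 and 16.4 FPKM in Ctrl and 9.74, 10.6 and 13.0 FPKM in MIR21-KO, where MIR21-KO replicate 3 was closest to Ctrl (log2 fold change of -0.63 ± 0.12 (SE), FDR of 0.00816).

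**Figure D3:**
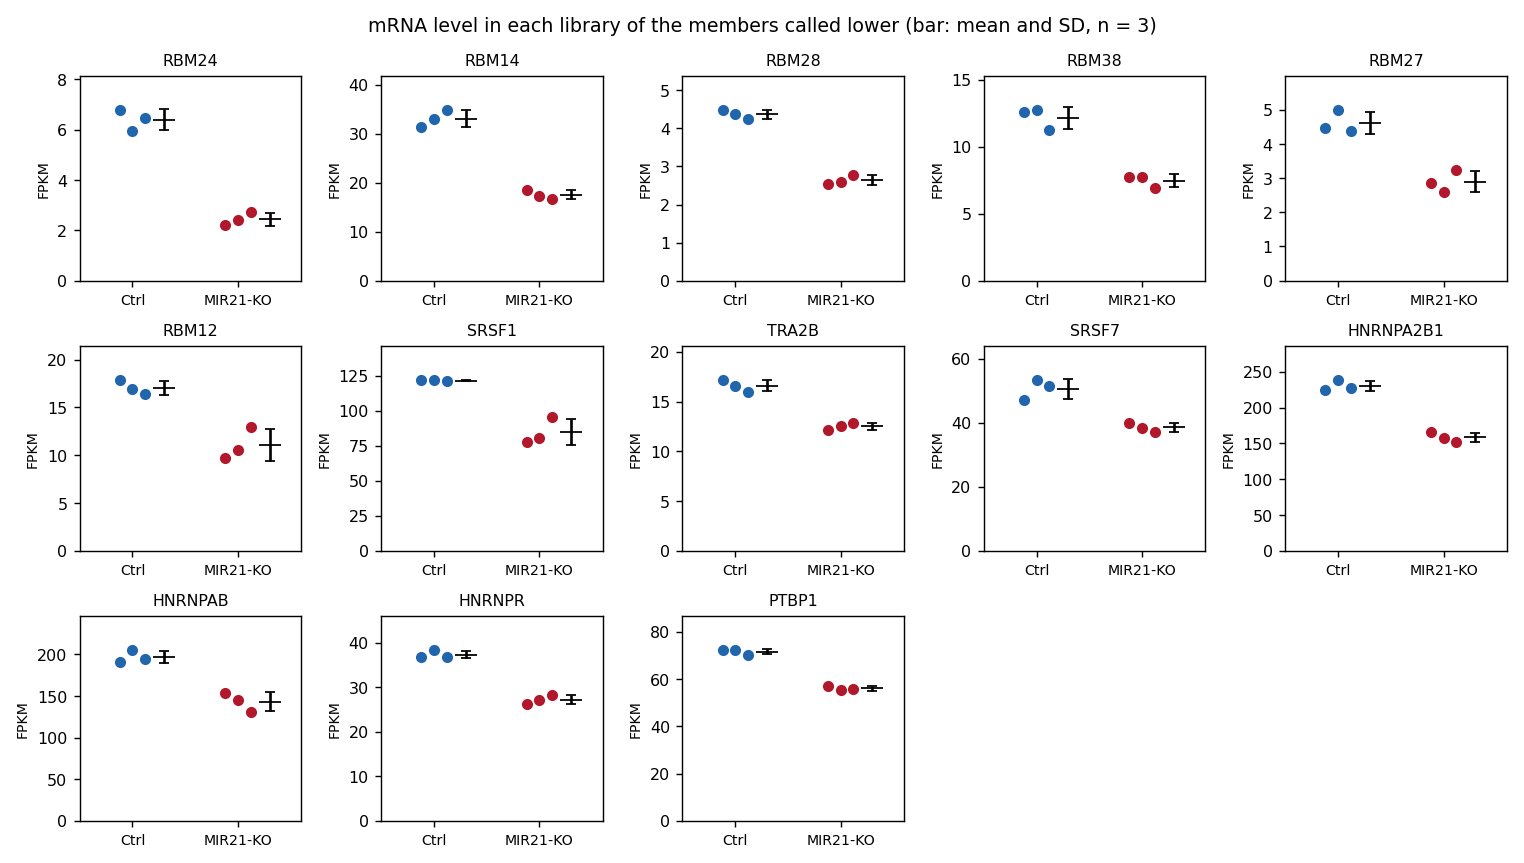
Level in FPKM in each library (points, left to right replicates 1 to 3) with mean and SD (n = 3) for the 13 members called lower. In every panel all MIR21-KO points lie below all Ctrl points, with the widest relative gap for RBM24 (6.39 against 2.43 FPKM).

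Several RBM genes had higher means in MIR21-KO, though none passed the threshold. RBM5, a splicing regulator of apoptosis genes that lies in a tumour suppressor region of chromosome 3, was at 4.93, 5.21 and 5.41 FPKM in Ctrl and 6.81, 6.86 and 7 FPKM in MIR21-KO. Its groups were clearly apart, and it just missed the threshold (log2 fold change of 0.40 ± 0.08 (SE), FDR of 0.0104). RBM5 was called with voom (0.00447), among protein-coding genes alone (0.00643), and with a minimum of 5 FPKM (0.00792) or 10 reads (0.00988). RBM6, its neighbour and relative, was at 7.18, 6.65 and 7.57 FPKM in Ctrl and 6.99, 6.76 and 6.46 FPKM in MIR21-KO, with overlap (log2 change -0.08, FDR 0.517). RBM10, an X-linked relative, was at 19.8, 21.2 and 21.7 FPKM in Ctrl and 19.8, 17.3 and 16.2 FPKM in MIR21-KO, with overlap (log2 change -0.24, FDR 0.101).

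RBM20, known for the splicing of titin in heart muscle, was low in these cells, at 1.58, 1.2 and 1.11 FPKM in Ctrl and 2.1, 1.97 and 2.45 FPKM in MIR21-KO. All MIR21-KO libraries were above Ctrl, but the spread within groups was large (log2 fold change of 0.71 ± 0.18 (SE), FDR of 0.0243). It was called with voom (0.00547) and among protein-coding genes alone (0.00866). RBM3, a cold-inducible protein and the most abundant RBM mRNA in MIR21-KO, averaged 97.7 ± 4.81 FPKM in Ctrl and 115.3 ± 4.16 FPKM in MIR21-KO, without overlap (log2 change 0.24, FDR 0.0554), and was called after removal of GC and length trends (0.00705). RBM43 averaged 1.81 ± 0.420 FPKM in Ctrl and 2.53 ± 0.588 FPKM in MIR21-KO (log2 change 0.46, FDR 0.169).

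RBM15, a relative of RBM15B, was at 5.67, 3.98 and 4.76 FPKM in Ctrl and 2.51, 3.03 and 3.38 FPKM in MIR21-KO. The groups did not overlap, but with a wide spread in Ctrl the difference missed the threshold (log2 change -0.67, FDR 0.0246). RBM12B was at 5.44, 4.87 and 4.93 FPKM in Ctrl and 3.37, 3.86 and 6.08 FPKM in MIR21-KO, with MIR21-KO replicate 3 above every Ctrl library (log2 change -0.24, FDR 0.438). RBM4 was at 1.65, 1.61 and 1.39 FPKM in Ctrl and 1.71, 1.57 and 1.67 FPKM in MIR21-KO, and RBM4B was at 7.03, 6.26 and 6.22 FPKM in Ctrl and 7.52, 7.01 and 6.60 FPKM in MIR21-KO. Both pairs of groups overlapped (FDR 0.683 and 0.396), and RBM4 shares 24.2% of its exon length with the read-through gene RBM14.RBM4.

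RBM42, the RBM mRNA with the highest mean over all 6 libraries, was at 107.4, 113.1 and 110.7 FPKM in Ctrl and 125.6, 107.8 and 83.7 FPKM in MIR21-KO. Its MIR21-KO libraries enclosed the Ctrl range (log2 change -0.08, FDR 0.707). RBM19, a nucleolar protein, averaged 7.70 ± 0.162 FPKM in Ctrl and 5.56 ± 0.525 FPKM in MIR21-KO without overlap and narrowly missed the threshold (log2 change -0.47, FDR 0.0106). RBM47, a cofactor of the RNA editing enzyme APOBEC1, averaged 11.3 ± 0.688 FPKM in Ctrl and 8.29 ± 0.819 FPKM in MIR21-KO (log2 change -0.45, FDR 0.0145). RBM8A (Y14), a core protein of the exon junction complex, averaged 32.1 ± 1.45 FPKM in Ctrl and 31.9 ± 0.780 FPKM in MIR21-KO, and RBM39, a U2AF-related splicing factor, averaged 20.2 ± 0.251 FPKM in Ctrl and 20.6 ± 0.854 FPKM in MIR21-KO. Neither RBM8A nor RBM39 differed beyond its spread (FDR 0.93 and 0.768). The remaining tested genes RBM7, RBM18, RBM26 and RBM48 had fold changes of -0.34 to 0.02 and FDRs of 0.0731 to 0.912. Together the RBM mRNAs differed by -7.89% between groups (510 ± 4.57 against 470 ± 20.8 FPKM, SD, n = 3).

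None of the 9 SF3 subunits passed the threshold, with 4 lower by an unadjusted p under 0.05 and 0 called by voom. SF3B5, the most abundant of them, was at 103.2, 124.0 and 110.5 FPKM in Ctrl and 133.5, 113.7 and 89.8 FPKM in MIR21-KO, with wide overlap (log2 change -0.02, FDR 0.945). SF3B4 was at 74.9, 68.8 and 68.7 FPKM in Ctrl and 60.8, 58.7 and 53.1 FPKM in MIR21-KO, without overlap (log2 change -0.30, FDR 0.0343). SF3B2 averaged 31.1 ± 0.775 FPKM in Ctrl and 25.9 ± 2.30 FPKM in MIR21-KO, SF3A1 averaged 23.5 ± 0.955 FPKM in Ctrl and 20.3 ± 1.65 FPKM in MIR21-KO and SF3A3 averaged 24.5 ± 0.836 FPKM in Ctrl and 22.3 ± 1.42 FPKM in MIR21-KO. SF3B1, the subunit mutated in myeloid disease, was at 29.3, 26.7 and 27.2 FPKM in Ctrl and 21.0, 25.4 and 29.2 FPKM in MIR21-KO, and MIR21-KO replicate 3 lay within the Ctrl range (log2 change -0.15, FDR 0.405). SF3A2 (log2 change 0.00, FDR 0.969) and SF3B6 (log2 change -0.08, FDR 0.676) completed the group. The SF3 sum was 404 ± 11.9 FPKM in Ctrl, against 370 ± 33.9 FPKM in MIR21-KO libraries (SD, n = 3), and its ranges overlapped.

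Because related splicing factors can act on the same exons, ratios of FPKM were compared within 18 pairs of relatives. The ratio of HNRNPA1 to HNRNPA2B1 was 1.298, 1.21 and 1.28 in Ctrl and 2.34, 2.40 and 2.25 in MIR21-KO. The ratio of HNRNPH2 to HNRNPH1 was 0.640 ± 0.0317 in Ctrl and 0.956 ± 0.0731 in MIR21-KO libraries. RBM15B to RBM15 changed from 2.52 ± 0.426 to 4.97 ± 0.791 and RBM5 to RBM6 from 0.729 ± 0.0498 to 1.02 ± 0.0546 (SD, n = 3). None of these ratios overlapped between groups. TRA2A to TRA2B (1.78 to 2.14) and SRSF6 to SRSF4 (4.39 to 5.47) did not overlap either. Of the 18 ratios, 12 were higher in every MIR21-KO library, RBM12 to RBM12B was lower in every one (3.36 to 2.59), and 5 overlapped. Which gene of a pair was the numerator was arbitrary, so these directions are not comparable between pairs. HNRNPA2B1, HNRNPH1, PTBP1, SRSF4 and RBM5 each entered several pairs, so the ratios are not independent. Some relatives, such as HNRNPF and HNRNPA0, entered none. No share was computed for other pairs of genes. Of all single tested genes, 25.2% lay wholly below Ctrl and 22.8% wholly above. An exact permutation test of 3 against 3 cannot go below p = 0.1.

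**Figure D4:**
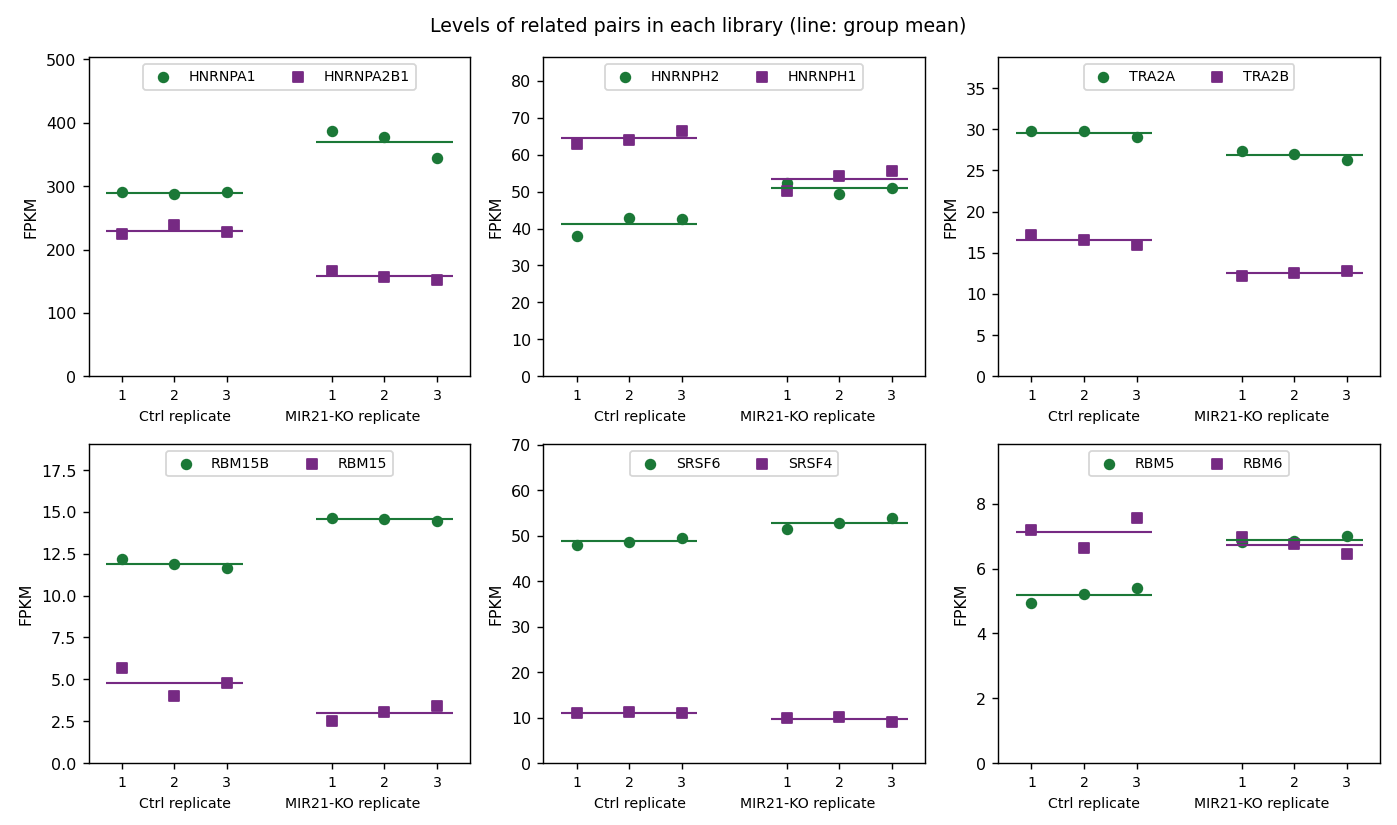
Levels in FPKM of 6 related pairs in each library, with lines at the group means. HNRNPA1 and HNRNPA2B1 move apart in MIR21-KO (ratio 1.26 to 2.33), and HNRNPH1 and HNRNPH2 come together (0.640 to 0.956).

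Other parts of the splicing machinery were counted by lists of genes that are no members, beside the same background shares of all tested genes as above (8.38% called lower and 7.66% higher by limma, 22.5% and 20.7% by an unadjusted p under 0.05, 10.7% and 10.8% by voom). Of 59 core spliceosome genes, 9 fell (15.3%) and none rose (median of -0.22), with 25 lower and 2 higher by an unadjusted p under 0.05 and 10 and 0 by voom. PRPF4, a U4/U6 snRNP protein, had the smallest p and was at 37.2, 36.4 and 34.9 FPKM in Ctrl and 23.6, 24.8 and 24.4 FPKM in MIR21-KO (log2 change -0.57, FDR 0.00129). Of 8 genes of the exon junction complex and its partners, none was called by limma, 4 were lower by an unadjusted p under 0.05 and 1 was lower by voom (median of -0.23). Among 44 other splicing regulators, 6 fell (13.6%) and 1 rose (2.27%), with a median of -0.23. TARDBP (TDP-43) was lowest in p among the falls, at 24.1, 24.6 and 23.6 FPKM in Ctrl and 17.6, 17.5 and 15.7 FPKM in MIR21-KO (log2 change -0.51, FDR 0.00331). PCBP4, a poly(C)-binding protein and p53 target, was the gene that rose (log2 change 0.82, FDR 0.00483).

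The kinases that phosphorylate SR proteins moved in both directions, with 1 of 8 lower and 1 higher (12.5% each, median of 0.07). SRPK1, the cytoplasmic SR kinase, fell and was at 15.8, 15.0 and 15.3 FPKM in Ctrl and 9.25, 10.0 and 12.1 FPKM in MIR21-KO (log2 change -0.56, FDR 0.00938). CLK1, a nuclear SR kinase, rose and was at 7, 6.51 and 7.59 FPKM in Ctrl and 11.2, 13.0 and 13.8 FPKM in MIR21-KO (log2 change 0.84, FDR 0.00202). Neither kinase showed overlap between groups. None of 9 genes specific to the minor spliceosome was called by limma, where 1 had an unadjusted p under 0.05 and 1 was lower by voom (median of 0.06).

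The number of called members depended on single libraries. Calls dropped from 13 to 2, 2 and 3 without Ctrl replicate 1, 2 or 3 (5.59%, 5.76% and 5.45% of all tested genes). They dropped to 9 and 2 without MIR21-KO replicate 1 or 2 (13.7% and 4.80%) and rose to 22 without MIR21-KO replicate 3 (21.2%). The median fold change of the members stayed between -0.24 and -0.20 in these fits. It moved to -0.13 once the trends of each library on GC content and gene length were removed, and was -0.25 under scaling by total reads. With the trends removed, 23 members were called (20 lower and 3 higher), against 24.8% of all tested genes. Of the 13 calls only 8 were kept there, and those of SRSF7, TRA2B, HNRNPA2B1, HNRNPR and RBM27 were lost.

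In the other alternatives, the number of members called is given beside the share of all genes called. Median-ratio scaling called 15 members and 16.3% of genes, total-read scaling 20 and 17.0%, and pseudocounts of 1 and 0.01 called 14 and 13 members (16.2% and 15.7% of genes). Restriction to protein-coding genes called 21 members and 27.8% of genes, a minimum of 5 FPKM 16 and 25.9%, a minimum of 10 reads 17 and 21.0%, and no filter 6 and 6.16%. Limma without trend or robust fitting called 5 members and 12.2% of genes. With the replicate number as a block, 2 members and 4.07% of genes were called, and 3 members and 11.1% with the trends removed as well.

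The MIR21-KO libraries differed among themselves along gene length. Across the 79 members, the log2 difference of replicate 3 to replicate 1 ranged from -0.59 to 0.83 and had a Pearson correlation of 0.50 with log2 gene length and of -0.35 with GC content. The correlation with length was 0.46 for replicate 3 minus 2 and 0.37 for replicate 2 minus 1. The points share the same libraries, and this is a description across genes, which are not replicates. Between Ctrl libraries the correlation with length was -0.38 to 0.23 and the SD of the differences was 0.12 to 0.16, compared with 0.14 to 0.28 between MIR21-KO libraries. Among the MIR21-KO libraries, the short SF3B5, SF3B6 and RBM42 mRNAs were lowest in replicate 3, and the long PTBP3, RBM12B and SF3B1 mRNAs were highest there. The fold changes of the members showed correlations of -0.08 with length, -0.02 with GC content and -0.03 with level. Correlations within the members cannot show a shift of the whole set. Members had a lower median GC content than tested protein-coding genes (43.0% against 48.4%) and longer genes (5923 against 5032 bases). What part length and GC content played in any result was not tested beyond the removal of the trends.

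**Figure D5:**
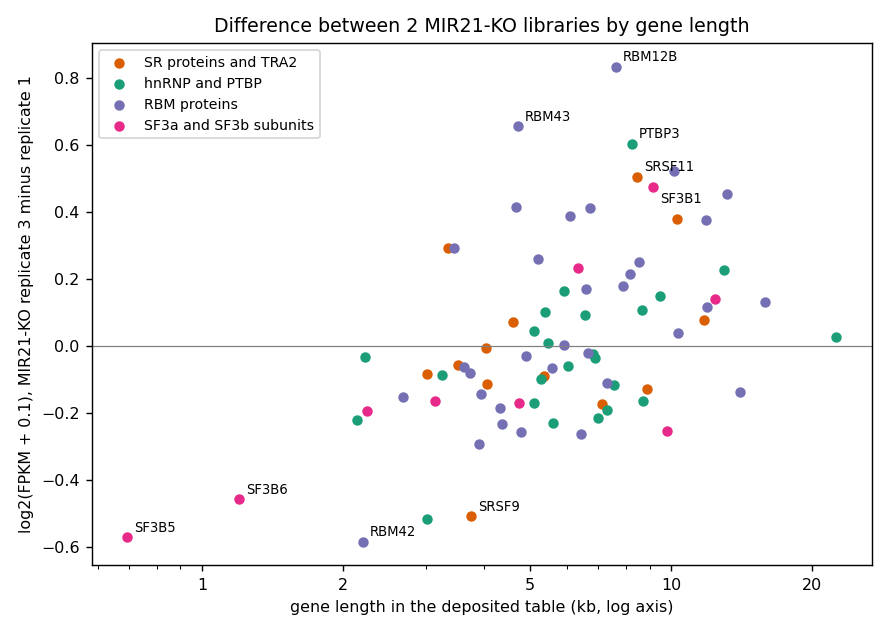
Difference on the log2(FPKM + 0.1) scale between MIR21-KO replicates 3 and 1 (y axis) over gene length in kb (x axis, log scale) for the 79 tested members, coloured by class. Short genes tend to lie below zero and long genes above (Pearson r = 0.50).

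Of the 10 members that were not tested, RBM11, RBM46, HNRNPCL3 and HNRNPCL4 had no read in any library. Such a count of 0 allows up to 3 reads, or 0.219 to 0.279 FPKM on a gene of 1 kb, and covers counting error only. SRSF12 averaged 0.427 ± 0.132 FPKM in Ctrl and 0.189 ± 0.0556 FPKM in MIR21-KO and RBM34 averaged 0.330 ± 0.167 FPKM in Ctrl and 0.328 ± 0.0798 FPKM in MIR21-KO. RBM34 shares 51.5% of its exon length with ARID4B on the same strand. RBM44, HNRNPCL1, HNRNPCL2 and the read-through gene HNRNPUL2.BSCL2 averaged at most 0.0752 FPKM in either group. None of the 10 had more than 34 reads in a library, and all were under the minimum level for the test. Without that minimum 85 members were tested, and of the 6 added none was called, with 1 at an unadjusted p under 0.05, which was SRSF12 (log2 change -0.85, FDR 0.150).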

How the data were processed

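PolyA RNA-seq libraries of A549 cells were analysed, 3 of Ctrl and 3 of MIR21-KO, grouped by sample title. The authors deposited 1 table with gene length, the FPKM of the libraries, and result columns of their own comparison (log2 fold change, p-value, FDR), which were not used. The submitters' processing notes name cutadapt 1.14, HISAT2 2.1.0, SAMtools 1.5, featureCounts 1.5.3, edgeR 3.18.1 and hg38. According to the study's methods, FDRs followed TMM normalization. Annotation, strand setting and the counting of shared reads are not given in the sources used here, so paralogues, pseudogenes and overlapping genes are uncertain. Some members share little exon length on the same strand but more when both strands are counted. With both strands this share was 46.2% for SRSF9, 38.8% for RBM12B, 36.7% for SRSF2, 26.9% for RBM8A and 21.2% for RBM5. FPKM times gene length gave whole multiples of a single step per library for 100% of values (tolerance 0.01), from which reads were recovered.

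Genes averaging 0.5 FPKM or more were tested two-sided with limma 3.58.1 (R 4.3.3) on log2(FPKM + 0.1) values (eBayes with trend and robust fitting, no covariate). Benjamini-Hochberg FDRs under 0.01 over all 16006 tested genes were called. The procedure was tested on simulated data. Alternatives included the omission of single libraries, a replicate block, changed filters and pseudocounts, median-ratio and total-read scaling, protein-coding genes only, plain eBayes, an FDR under 0.05, voom on recovered reads, and removal of GC and length trends (lowess, span 0.3) with and without the block. Libraries ranged from 10631667 to 14345209 reads, and floors of 3 reads cover counting error only. Coordinates, exon overlaps and the longest 3′ UTR of at least 30 bases came from GENCODE 29, which matched 57836 of 58174 identifiers. Figures were drawn with matplotlib 3.10.9.

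The members and lists were chosen with earlier results of these data known. Values in every library were given for called members, the most abundant member of each class, the related groups and genes with a miR-21-5p 8mer or 7mer, and from each partner list the called gene with the smallest p in each direction was named.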

Additional observations from a re-analysis of the deposited data

How the results depend on the processing

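Only RBM24 and RBM14 kept their calls under every alternative that gave a value. An FDR under 0.05, counted among the alternatives, could not lose a call. Of 1567 member values under the 20 alternatives, 1356 kept direction and side of the threshold, 91 lost and 87 gained a call, and 33 changed sign, none of them in a called member. The following counts differ from those reported by over 1.5 times, and their causes were not tested.

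Same-numbered libraries did not deviate together across genes (correlations of -0.171, -0.018 and -0.017). The MIR21-KO libraries also differed along gene length, and what the replicate numbers stand for is not given. Whether these numbers mark a pairing was therefore not settled. With the replicate block, 651 genes were called, with 2 members (35 at an unadjusted p under 0.05), all RBM, 0 SR (6), 0 hnRNP (12) and 0 partner genes (43). The block with GC and length trends removed gave 3 members, 0 SR (5), 1 hnRNP, 2 RBM and 11 partner genes.

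Leaving out single libraries gave 768 to 3400 genes, 2 to 22 members, 0 to 4 SR, 0 to 9 hnRNP, 2 to 9 RBM, 0 SF3 in every case and 0 to 25 partner genes. Where a count was 0 in these fits, 6 SR, 13 or 14 hnRNP, 2 to 5 SF3 and 43 or 44 partner genes had an unadjusted p under 0.05. At an FDR under 0.05 the counts were 5114 genes, 36 members, 6 SR, 13 hnRNP, 15 RBM, 2 SF3 and 40 partner genes. With trends removed they were 3960 genes, 23 members, 7 hnRNP, 11 RBM, 2 SF3 and 31 partner genes. Without a filter they were 6 members, 0 SR (8 at an unadjusted p under 0.05), 2 hnRNP and 11 partner genes. Protein-coding genes alone gave 21 members, 5 SR, 11 RBM and 29 partner genes. Scaling by total reads, which shifted all genes by -0.035, gave 20 members, 5 SR, 8 hnRNP and 1 SF3. Voom gave 22 members, 7 hnRNP and 11 RBM, and limma without trend or robust fitting 5 members, 0 SR (6), 1 hnRNP and 9 partner genes.

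Signs of log2 fold changes near zero turned in 11 uncalled members. Leaving out single libraries gave ranges of -0.0497 to 0.0207 for HNRNPUL1, -0.00339 to 0.054 for RBM39, -0.217 to 0.0761 for RBM42, -0.0893 to 0.0419 for RBM48, -0.0469 to 0.0708 for RBM7, -0.0351 to 0.0265 for RBM8A, -0.0324 to 0.051 for SF3A2, -0.151 to 0.135 for SF3B5, -0.188 to 0.042 for SF3B6 and -0.19 to 0.0624 for SRSF11. Voom gave HNRNPUL1 0.000397, RBM8A 0.0042 and SF3B5 0.000637. Total-read scaling gave RBM39 -0.00694, RBM7 -0.0153 and SF3A2 -0.0315, and median-ratio scaling SF3A2 -0.00155. With trends removed, PTBP2 was 0.00119, RBM48 0.127, RBM8A 0.068, SF3A2 -0.137 and SRSF11 0.106, also with the block.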

Other observations

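Besides HNRNPA1, some hnRNP genes have pseudogene rows that drew reads. Pseudogenes held 4.23% of the reads of HNRNPC and its 9 pseudogenes and 2.12% of those of HNRNPA3 and its 16. The changes of both genes were alike with and without them as shares of library reads, at -0.29 and -0.29 for HNRNPC and -0.26 and -0.26 for HNRNPA3. Over the pseudogenes of members, 17 were tested and none was called by limma (4 at an unadjusted p under 0.05, 0 called by voom). Of these 4, HNRNPA1P48 was higher (log2 change 0.37, FDR 0.044). HNRNPUP1, HNRNPA3P5 and HNRNPA3P6 were lower (log2 changes -2.09, -0.49 and -0.35). The HNRNPA1 pseudogenes HNRNPA1P7, HNRNPA1P10 and HNRNPA1P33 had log2 changes of 0.11, 0.03 and -0.29.

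Matches to let-7, whose 8mer in RBM38 reads ggtctccctccggacCTACCTCA with the match in capitals, were counted in the same 3′ UTRs. An 8mer or 7mer was held by 16 tested members, 10 with fold changes below zero and 6 above, with a median of -0.21. The 54 members without a match had a median of -0.22, with 44 below zero and 10 above.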
